A study of Mus musculus with 3 samples.

Results

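Lipid uptake and lipid droplet genes were followed through the adipocyte progenitor cells of subcutaneous fat. The group has 10 members among the 32285 genes of the count files: Lpl, Angptl4, Cd36, Fabp4, Fabp5, Acsl1, Scd1, Plin2, Plin4 and G0s2. All 10 were found and all passed the low-count filter of every comparison. They are protein-coding genes with between 2 (G0s2) and 21 exons (Acsl1), and positions below are those of GENCODE on GRCm38, the build (mm10) named in the labels. The cells were CD31- CD45- cells sorted from the stromal vascular fraction of the subcutaneous inguinal depot, which is what remains of digested fat once the floating adipocytes are removed. They came from 3 wild-type C57BL/6J male mice, 8 weeks old, with 1 droplet library of single cells per mouse, and the labels name no altered allele and no treatment. Levels were compared between 4 classes of cells that were gated on other genes, so no lipid gene chose the cells. Cells of a class were summed within each mouse, so n is 3 mice throughout, and a level is given in CPM, the UMIs (unique molecular identifiers, that is, counted molecules) of a gene scaled to a total of 1000000 UMIs of the summed cells.

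Fat cells take up fatty acids that lipoprotein lipase frees from circulating triglyceride, carry them inside the cell on fatty acid binding proteins, activate them to acyl-CoA and store them as triglyceride in droplets coated by perilipins. Many genes of this route are targets of PPARG, the nuclear receptor that drives fat cell formation, and in fat tissue they are best known from mature adipocytes. In the stromal fraction, DPP4+ adipocyte stem cells (ASCs, here progenitors) are held to give rise to ICAM1+ preadipocytes (PreAs), while adipocyte regulatory cells (Aregs) restrain differentiation of their neighbours.

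After barcodes with 500 or fewer genes or at least 5% mitochondrial UMIs were removed, 12984, 6414 and 15179 cells of mice 1, 2 and 3 remained, with a median of 7392.5, 12192.5 and 6667 UMIs. The progenitor gate required at least 3 UMIs of Dpp4 and Pi16 together and none of Icam1, and held 6938, 2911 and 8170 cells. The preadipocyte gate, at least 2 UMIs of Icam1 and at most 1 of Dpp4, held 1704, 1310 and 1998 cells. The regulatory gate, at least 1 UMI each of Clec11a and Fmo2 and at most 1 each of Dpp4 and Icam1, held 246, 339 and 334 cells. The committed gate, at least 2 UMIs of Cited1, held 217, 68 and 108 cells. Library pairs shared 52, 81 and 64 barcodes, and doublets were not removed.

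The classes carried the markers of their names, in lists that include the gate genes. The summed level of 10 ASC markers was between 9227 and 9887 CPM in progenitors and between 1079 and 1191 CPM in preadipocytes. That of 9 PreA markers was between 7100 and 9576 CPM in preadipocytes and between 460.4 and 837 CPM in progenitors. In between lay regulatory cells (4503, 4062 and 3526 CPM) and committed cells (5564, 3072 and 3150 CPM). That of 8 Areg markers was between 4497 and 4732 CPM in the regulatory class and at most 1861 CPM in any other class. The sum of 6 markers of committed cells was 1139, 715 and 3322 CPM in that class and at most 143 CPM in any other class. Not every gene of this list was higher there, as given below. Committed cells were the most mixed. Their ASC marker sum was 1355, 3891 and 2481 CPM in mice 1, 2 and 3, and 11.5%, 25.0% and 21.3% of them also met the progenitor gate. Adipocyte markers were near 0 in every class. The sum of 10 adipocyte markers was between 2.03 and 17.8 CPM in all sums, with Lipe as the largest part, and the adipocyte hormone genes Adipoq and Lep stayed at or under 0.472 CPM in every class. The sum of 10 endothelial markers was not near 0 and differed between classes, at 169, 142 and 171 CPM in progenitors, 52.2, 61.9 and 42.7 CPM in preadipocytes, between 23.9 and 27.5 CPM in regulatory cells and between 40.2 and 61.9 CPM in committed cells. In progenitors most of it was Tek (158, 138 and 167 CPM). Each of the other 9 was at or under 7.74 CPM (Kdr in progenitors of mouse 1), and the defining markers Pecam1 and Cdh5 were at most 0.673 CPM in progenitors and 4.82 CPM in the other classes. The sum of 8 mural markers was between 17.3 and 31.7 CPM in progenitors, between 61.2 and 85.7 CPM in preadipocytes, between 52.7 and 118 CPM in regulatory cells and between 31.2 and 48.2 CPM in committed cells. That of 10 leukocyte markers was between 4.59 and 25.2 CPM in all classes. The part of mural cells in the members' values was not tested.

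Of the 10 members, 5 had a promoter in the RefSeq table. The 250 bases upstream of the start are shown for the 4 of them called higher in preadipocytes than in progenitors, so that result chose the windows. They come from GRCm38.p6, all on the minus strand, from chr5:17835897-17836146 (Cd36), chr4:86670060-86670309 (Plin2), chr17:56109783-56110032 (Plin4) and chr1:193273189-193273438 (G0s2). The starts of Cd36, Plin4 and G0s2 in RefSeq lie inside the longer GENCODE genes. The motifs marked in them are thus upstream of the RefSeq start but within the GENCODE gene. Each window runs 5′ to 3′ and ends next to the transcription start, and capitals mark matches to CCAAT (the CCAAT box), GGGCGG (the GC box) and AGGTCA (the hexamer that nuclear receptors, PPARG among them, bind), read on both strands.
Cd36: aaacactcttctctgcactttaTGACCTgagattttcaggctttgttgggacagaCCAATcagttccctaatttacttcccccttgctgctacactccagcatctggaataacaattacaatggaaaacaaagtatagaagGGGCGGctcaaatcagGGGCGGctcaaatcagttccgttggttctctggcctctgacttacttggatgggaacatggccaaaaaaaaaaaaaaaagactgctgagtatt
Plin2: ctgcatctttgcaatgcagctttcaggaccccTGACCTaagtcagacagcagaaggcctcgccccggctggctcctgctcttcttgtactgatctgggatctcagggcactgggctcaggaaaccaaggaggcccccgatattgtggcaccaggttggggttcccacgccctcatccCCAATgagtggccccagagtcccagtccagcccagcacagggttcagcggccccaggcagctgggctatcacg
Plin4: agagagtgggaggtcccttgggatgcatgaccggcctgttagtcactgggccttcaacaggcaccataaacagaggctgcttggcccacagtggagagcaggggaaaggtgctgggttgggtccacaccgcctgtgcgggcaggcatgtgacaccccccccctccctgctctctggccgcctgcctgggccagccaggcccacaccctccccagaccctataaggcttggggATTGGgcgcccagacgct
G0s2: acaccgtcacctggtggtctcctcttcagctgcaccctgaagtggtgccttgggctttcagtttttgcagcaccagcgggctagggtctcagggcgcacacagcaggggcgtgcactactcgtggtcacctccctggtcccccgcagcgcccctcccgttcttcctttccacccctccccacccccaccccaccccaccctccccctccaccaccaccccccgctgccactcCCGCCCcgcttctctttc
A CCAAT box was found in Cd36, Plin2 and Plin4, against 33.8% of all 32851 windows of this length. The GC box occurred 2 times in Cd36 and 1 time in G0s2, against 32.7% of windows with a match. Both boxes also matched upstream of Acsl1, which had a RefSeq promoter but no call and is not shown. They are thus not particular to the members that were higher. The AGGTCA hexamer lay 228 to 223 bases upstream in Cd36 and 218 to 213 bases upstream in Plin2, and 14.0% of windows hold it. The TATA box TATAAA (12.4% of windows) and the E box CACGTG (6.02%) matched in none of the 4. DR1, a pair of hexamers in the same direction with 1 base between them, also matched in none, and 0.0335% of all windows hold it. A match is a match of letters and was not tested for binding.

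Preadipocytes held far more of the lipid uptake transcripts than progenitors. Lpl (ENSMUSG00000015568, chromosome 8, 68880491 to 68907448), the secreted lipase that frees fatty acids from lipoprotein triglyceride, was at 483, 421 and 369 CPM in progenitors and at 2871, 2246 and 2412 CPM in preadipocytes of mice 1, 2 and 3. Every preadipocyte value lay above every progenitor value. The log2 fold change was 2.56 ± 0.177 (SE; edgeR, adjusted p = 1.44e-07). Angptl4 (ENSMUSG00000002289, chromosome 17, 33773750 to 33781830), a secreted inhibitor of that lipase, was at 86.1, 56.0 and 59.1 CPM in progenitors and 389, 308 and 389 CPM in preadipocytes, a log2 fold change of 2.45 ± 0.181 (SE; edgeR, adjusted p = 2.53e-07). Enzyme and inhibitor were higher in the same class. Cd36 (ENSMUSG00000002944, chromosome 5, 17781690 to 17888801), the fatty acid translocase of the cell surface, was at 10.7, 3.34 and 3.25 CPM in progenitors. In preadipocytes it was at 169, 58.5 and 87.3 CPM, so mouse 1 was the highest of the 3 in both classes while the classes did not overlap. Its log2 fold change was 4.25 ± 0.226 (SE; edgeR, adjusted p = 1.80e-08).

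Inside the cell, Fabp4 (ENSMUSG00000062515, chromosome 3, 10204088 to 10208576), the fatty acid binding protein of adipocytes, had the largest ratio of class levels together with Plin4. Its level was 57.0, 26.6 and 32.4 CPM in progenitors and 796, 699 and 728 CPM in preadipocytes, where the mice lay close to each other (741 ± 49.9 CPM, SD). The log2 fold change was 4.35 ± 0.252 (SE; edgeR, adjusted p = 3.24e-08). Fabp5 (ENSMUSG00000027533, chromosome 3, 10012548 to 10016607), a related binding protein, was much nearer to the detection limit, at 6.59, 6.96 and 4.80 CPM in progenitors and 31.8, 24.5 and 18.1 CPM in preadipocytes. It was still higher in preadipocytes of every mouse, by 2.00 ± 0.183 (SE, log2 scale; edgeR, adjusted p = 1.88e-06).

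The genes of the droplet surface followed. Plin2 (ENSMUSG00000028494, chromosome 4, 86648386 to 86670060), a perilipin that coats droplets in most cell types, was at 68.1, 52.5 and 51.7 CPM in progenitors and 488, 428 and 496 CPM in preadipocytes, a log2 fold change of 3.05 ± 0.278 (SE; edgeR, adjusted p = 1.81e-06). Plin4 (ENSMUSG00000002831, chromosome 17, 56100591 to 56109803), a perilipin of adipocytes and muscle, was nearly absent from progenitors at 1.60, 0.742 and 1.90 CPM and reached 27.9, 26.3 and 33.4 CPM in preadipocytes. Its log2 fold change was 4.35 ± 0.177 (SE; edgeR, adjusted p = 3.09e-09). Its exons overlap those of Hdgfl2 on the opposite strand, as G0s2 lies in an intron of Lamb3 and Acsl1 overlaps Gm45244, also on opposite strands. G0s2 (ENSMUSG00000009633, chromosome 1, 193272161 to 193273217), which inhibits the first lipase of droplet breakdown, was at 19.7, 16.9 and 9.95 CPM in progenitors and 229.5, 241 and 158 CPM in preadipocytes. It was higher by 3.76 ± 0.34 (SE, log2 scale; edgeR, adjusted p = 1.68e-06), and no value of one class reached the other.

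Of the enzymes between uptake and storage, Scd1 ran the other way and Acsl1 had no call. Scd1 (ENSMUSG00000037071, chromosome 19, 44394455 to 44407879), the desaturase that makes monounsaturated fatty acids, was at 118, 108 and 108 CPM in progenitors and at 52.5, 39.1 and 34.2 CPM in preadipocytes. It was lower in preadipocytes of every mouse and its log2 fold change was -1.44 ± 0.148 (SE; edgeR, adjusted p = 5.04e-06). Acsl1 (ENSMUSG00000018796, chromosome 8, 46471037 to 46536051), the main acyl-CoA synthetase of adipocytes, was low everywhere. It was at 5.27, 4.59 and 4.54 CPM in progenitors and 6.15, 5.45 and 6.25 CPM in preadipocytes, and the log2 fold change of 0.31 ± 0.235 (SE) did not pass the test (adjusted p = 0.321, edgeR). In all, 8 of 10 members were higher in preadipocytes and 1 was lower, against 21.4% of the 13032 tested genes called higher and 22.1% called lower. When cells with at least 2 endothelial or leukocyte UMIs were left out (not counting Tek, which progenitors express), Fabp4 differed by 4.43 and Cd36 by 4.37 on the log2 scale, and the same number of 9 members was called.

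**Figure D1:**
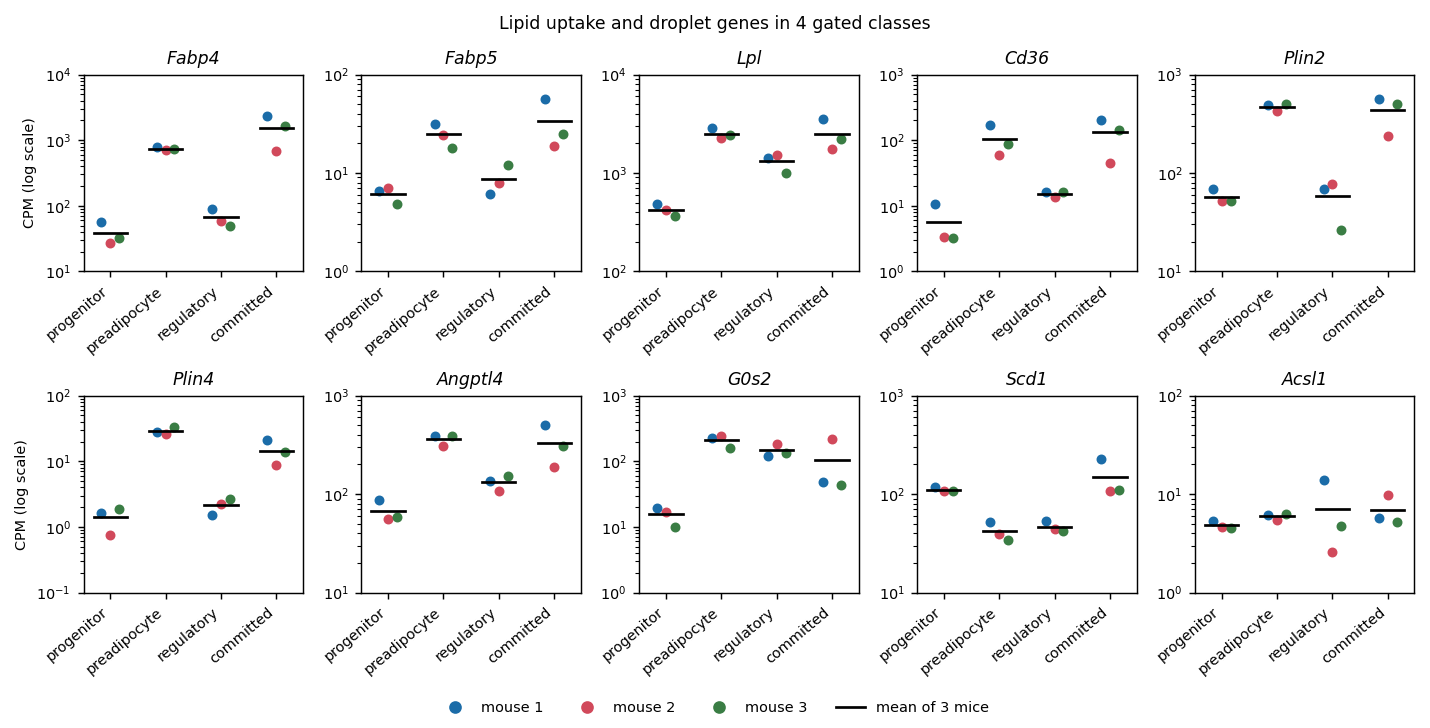
Level of each member in CPM (vertical axis, log scale with a range of its own per gene) in the 4 classes, with 1 point per mouse and a bar at the mean of 3 mice. Preadipocyte points lie above progenitor points for every gene but Scd1, which runs the other way, and the gap is smallest for Acsl1. The committed points of mouse 2 sit low for Fabp4 (693 CPM) and Cd36 (45.3 CPM).

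The share of cells with a transcript was compared at equal depth, after each cell was thinned to 3000 UMIs and shallower cells (between 0 and 728 per class and mouse) were left out. Lpl was found in 97.5%, 95.4% and 94.0% of preadipocytes and already in 62.3%, 63.6% and 57.3% of progenitors. The share thus differed by 35.3, 31.8 and 36.7 percentage points. Cells with 10 or more Lpl UMIs made up 37.1%, 26.1% and 28.8% of preadipocytes and 0.877%, 0.456% and 0.336% of progenitors. The mean level among cells with a Lpl UMI was not compared. Fabp4 was found in 51.4%, 42.1% and 44.5% of preadipocytes and in 8.16%, 3.72% and 4.10% of progenitors. About as many preadipocytes lacked a Fabp4 UMI at this depth as had one, while between 5.00% and 5.62% of them carried 10 or more. Angptl4 was found in 55.9%, 42.8% and 51.4% of preadipocytes against 19.7%, 12.4% and 13.7% of progenitors, and Plin2 in 51.5%, 44.3% and 45.9% against 15.1%, 12.5% and 11.97%. For Scd1 the order was again turned, with 15.4%, 11.3% and 9.44% of preadipocytes and 29.6%, 28.0% and 27.3% of progenitors. The share was higher in preadipocytes of all 3 mice for 8 members, and how many of all genes behaved so was not counted. A sign-flip test over 3 mice is exact and cannot go below p = 0.25, which all members but Acsl1 (p = 0.5) reached. Without thinning, Fabp4 was found in 63.6%, 57.1% and 51% of preadipocytes and 16.2%, 10.8% and 8.15% of progenitors. No class known to lack these transcripts was gated, so the part of free RNA in the low shares of progenitors was not tested.

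**Figure D2:**
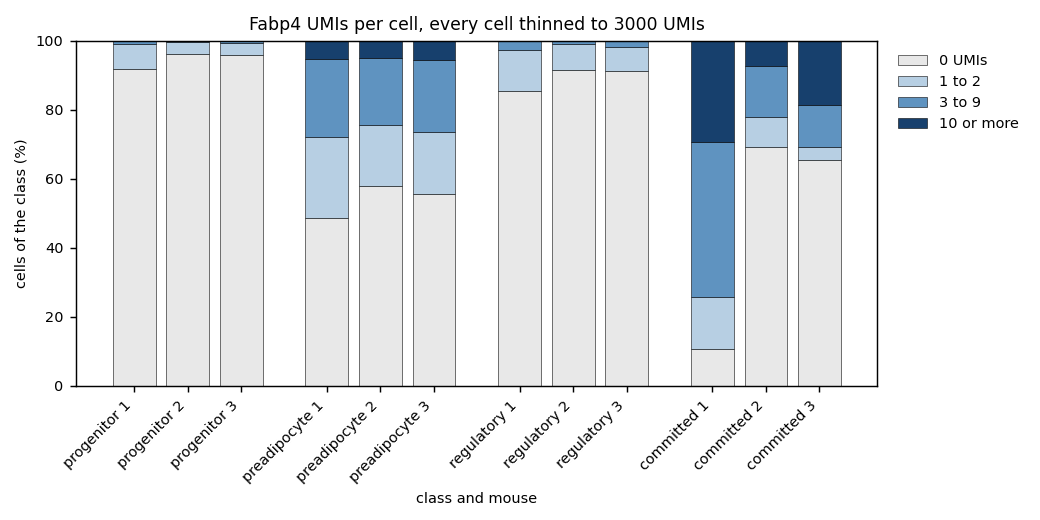
Stacked bars give the percentage of cells (vertical axis) with 0, 1 to 2, 3 to 9 and 10 or more Fabp4 UMIs in each class and mouse (horizontal axis), every cell thinned to 3000 UMIs. The 3 preadipocyte bars are alike, whereas cells without a Fabp4 UMI make up 10.7% of the committed bar of mouse 1 and 69.1% and 65.4% of those of mice 2 and 3.

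Several members were found more often in preadipocytes that had a Fabp4 UMI. At 3000 UMIs the median preadipocyte had 3 of the 10 members in every mouse and the median progenitor 1, and 26.0%, 18.2% and 18.7% of preadipocytes had 5 or more. Cd36 was found in 45.7%, 22.1% and 31.2% of the preadipocytes with a Fabp4 UMI and in 15.2%, 4.25% and 5.07% of those without. Plin2 was found in 63.8%, 65.9% and 64.8% against 38.5%, 28.6% and 30.7%, and Plin4 in 9.62%, 11.7% and 12.02% against 4.09%, 4.65% and 3.92%. Angptl4 was found in 61.9%, 53.3% and 63.2% against 49.7%, 35.2% and 41.9%, Fabp5 in 7.16%, 9.31% and 6.55% against 3.35%, 4.25% and 3.54%, and Lpl in 99.1%, 97.4% and 98.5% against 95.9%, 93.9% and 90.3%. G0s2 was found in 31.7%, 38.5% and 26.3% against 30.6%, 30.3% and 18.7%, with the smallest gap in mouse 1. These 7 genes were found more often with Fabp4 in each mouse. The same held for Acsl1, which was rare in both, at 1.88%, 1.64% and 2.62% against 1.73%, 1.06% and 1.63%. Scd1 was found less often with Fabp4 in each mouse, at 15.1%, 9.85% and 6.67% against 15.7%, 12.4% and 11.7%. These shares describe cells of the same mice, and no test was run on them. They were not taken for genes outside the group, so whether the pattern is particular to the members was not tested. Preadipocytes with endothelial UMIs were not left out.

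**Figure D3:**
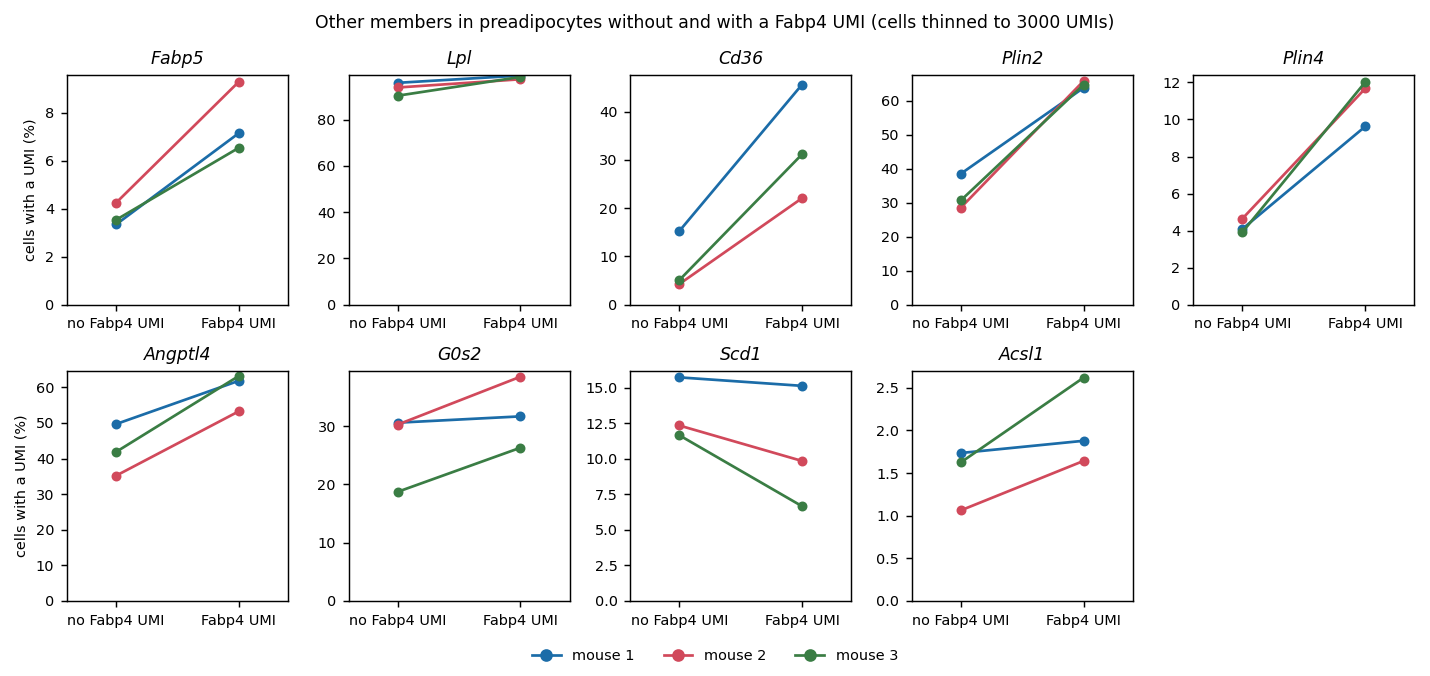
Percentage of preadipocytes with a UMI of each other member (vertical axis, from 0, with a range of its own per gene) among cells without and with a Fabp4 UMI, 1 line per mouse, cells thinned to 3000 UMIs. Lines for Cd36, Plin2 and Plin4 climb in all 3 mice (Cd36 in mouse 2 from 4.25% to 22.1%), and the Scd1 lines do not.

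Regulatory cells had only a part of the preadipocyte pattern. G0s2 was at 121, 184 and 136 CPM, higher than in progenitors by 3.28 ± 0.356 (SE, log2 scale; edgeR, adjusted p = 1.59e-05) and not separated from preadipocytes (log2 fold change -0.48, adjusted p = 0.406, edgeR). Lpl lay between the other two classes at 1404, 1528 and 991 CPM, with a log2 fold change of 1.66 against progenitors (adjusted p = 1.06e-05, edgeR) and of -0.90 against preadipocytes (adjusted p = 0.00419, edgeR). Without mouse 3 the latter was -0.74 with an adjusted p of 0.098 (edgeR). Angptl4 was likewise intermediate at 137, 107 and 154 CPM, by 1.03 and -1.41 on the log2 scale (adjusted p = 8.94e-04 and 3.80e-04, edgeR).

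Fabp4 was at 90.1, 59.0 and 50.004 CPM in regulatory cells, 0.88 above progenitors on the log2 scale (adjusted p = 0.0166, edgeR), and this call was lost without mouse 3 (adjusted p = 0.0677) and with stricter gates (log2 fold change 0.28, adjusted p = 0.471). Cd36 was at 16.0, 13.7 and 16.2 CPM and higher than in progenitors by 1.70 (adjusted p = 0.00302, edgeR; 0.0508 without mouse 2). Plin2 was at 69.5, 77.9 and 26.4 CPM, with a log2 fold change of 0.11 (adjusted p = 0.81, edgeR) against progenitors and of -2.93 against preadipocytes (adjusted p = 6.99e-05, edgeR). Plin4 stayed at 1.53, 2.23 and 2.70 CPM. Scd1, at 53.4, 43.7 and 41.9 CPM, was lower than in progenitors by -1.24 (adjusted p = 1.41e-04, edgeR), as in preadipocytes. Fabp5 was at 6.11, 7.98 and 12.2 CPM and Acsl1 at 13.7, 2.55 and 4.73 CPM, both without a call against progenitors. Against progenitors 5 members were called higher and 1 lower, where 17.0% and 17.4% of all genes were. Against preadipocytes none was called higher and 7 lower (Fabp4, Plin4, Plin2, Cd36, Fabp5, Angptl4 and Lpl), where 6.48% and 5.92% of all genes were. The call of Fabp5 (log2 fold change -1.45, adjusted p = 0.0107, edgeR) was lost without mouse 2 (adjusted p = 0.0895). Regulatory cells were shallower than preadipocytes, with a median of 4873.5, 9675 and 4275.5 UMIs against 7973.5, 13128 and 7102.

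**Figure D4:**
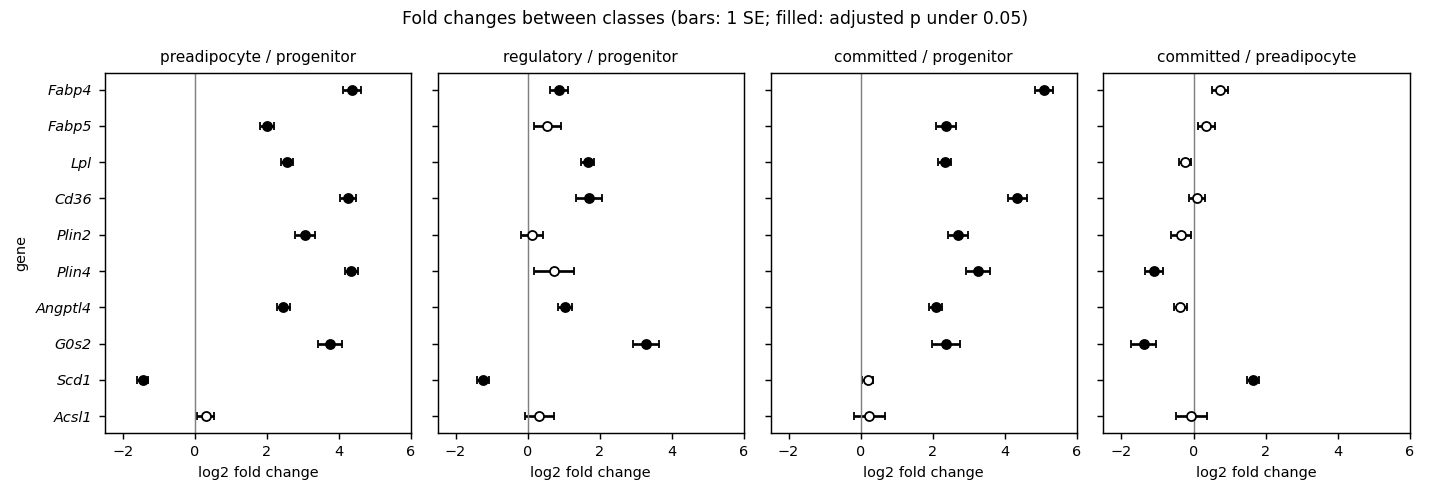
Log2 fold change of each member (horizontal axis) in 4 comparisons of classes, with bars of 1 standard error and filled points where the edgeR adjusted p is under 0.05. All panels share their scale, from which Fabp4 at 4.35, 0.88, 5.09 and 0.74 can be read across the row, and comparisons that share a class are not independent.

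Committed cells, gated on the transcription cofactor gene Cited1, had no called difference from preadipocytes in the summed levels of the uptake genes. They differed in others. Fabp4 was at 2303, 693 and 1658 CPM, above preadipocytes in mice 1 and 3 and level with them in mouse 2, and its log2 fold change of 0.74 ± 0.224 (SE) narrowly missed the threshold (adjusted p = 0.0521, edgeR). It passed without mouse 2 (log2 fold change 1.14, adjusted p = 0.00674) and when the committed cells of the progenitor gate were left out (0.92, adjusted p = 0.0116). Scd1 was at 226, 108 and 109 CPM, higher than in preadipocytes by 1.64 ± 0.166 (SE, log2 scale; edgeR, adjusted p = 1.15e-04) and close to progenitors (log2 fold change 0.20, adjusted p = 0.392). Plin4 was at 20.8, 8.86 and 13.6 CPM, lower than in preadipocytes by -1.09 (adjusted p = 0.0124, edgeR; 0.182 without mouse 3). G0s2 was at 48.7, 218 and 44.04 CPM and called lower by -1.39 (adjusted p = 0.0263, edgeR), but mouse 2 stood well above the others and the call was lost without mouse 1 (-0.89, adjusted p = 0.152) or mouse 3 (-1.15, adjusted p = 0.278).

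Lpl (3547, 1743 and 2226 CPM), Cd36 (206, 45.3 and 143 CPM), Plin2 (565, 237 and 497 CPM), Angptl4 (502, 187 and 308 CPM), Fabp5 (56.7, 18.7 and 25.2 CPM) and Acsl1 (5.67, 9.85 and 5.24 CPM) were not called against preadipocytes. Angptl4 passed without mouse 1, with a log2 fold change of -0.72 (adjusted p = 0.0136, edgeR). In total 1 member was called higher and 2 lower than in preadipocytes, where 5.33% and 6.26% of all genes were. Leaving out mouse 3 left 1 call. Against progenitors 8 members were called higher and none lower, where 15.0% and 16.6% of all genes were. The 2 members without a call were Scd1 and Acsl1. Against regulatory cells 8 members were called higher and none lower, where 7.37% and 8.81% of all genes were. The 8 include Scd1 at 1.44 on the log2 scale (adjusted p = 4.29e-04, edgeR), while G0s2 (-0.91, adjusted p = 0.13, edgeR) and Acsl1 had no call. Leaving out mouse 1 ended the calls of Fabp5 (adjusted p = 0.12), Lpl (0.183) and Plin4 (0.0944, edgeR), leaving out mouse 3 ended that of Lpl (0.144), and leaving out mouse 2 gave one to G0s2 (-1.77, adjusted p = 0.00559).

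The committed gate differed between mice in the share of cells with a member. At 3000 UMIs Fabp4 was found in 89.3%, 30.9% and 34.6% of its cells and Lpl in 98.1%, 86.8% and 63.6%. Against preadipocytes these shares differed by 37.9, -11.2 and -9.96 percentage points for Fabp4 and 0.602, -8.62 and -30.4 for Lpl. Plin2 (10.1, -19.3 and -11.3) and Angptl4 (6.68, -13.4 and -13.1) were likewise lower in mice 2 and 3 only. Cd36 was lower in mouse 2 only (11.2, -8.82 and 7.60), and Scd1 was higher in every mouse (24.3, 15.2 and 10.2). Committed cells that also met the progenitor gate (24, 17 and 23 cells of this depth) had Fabp4 in 66.7%, 5.88% and 13.0%, and those that also met the preadipocyte gate (57, 19 and 21 cells) in 98.2%, 47.4% and 66.7%. Those in no other gate (132, 30 and 59 cells) had it in 90.2%, 36.7% and 33.9%. Mouse 1 was the highest in all 3 parts. Ptn, a growth factor gene listed as a marker of committed cells, was at 293, 381 and 2373 CPM, and Car3, a carbonic anhydrase gene of adipocytes from the same list, at 227, 12.8 and 166 CPM. Fabp4 and Car3 had the same order of mice, which was also that of Pparg and of members such as Lpl and Cd36. Ptn had another order. Of the other genes of that list, Cebpa was lower than in preadipocytes in every mouse. It was at 23.6, 28.6 and 9.44 CPM against 34.3, 39 and 28.1 CPM. Pparg was at 59.05, 17.7 and 29.4 CPM against 47.5, 37.2 and 37.1 CPM, and Plin1 at 0, 0 and 1.05 CPM. The part of the mix of committed cells in the members' values was not tested.

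Preadipocytes were next divided by Cd44, the surface receptor by which the study separates a CD44high and a CD44low population. Cells with at least 2 Cd44 UMIs (231, 350 and 397) were compared with those with none (1131, 647 and 1137) in each mouse. The largest difference was in G0s2, at 143, 101 and 70.3 CPM with Cd44 and 269, 328 and 200.4 CPM without, a log2 fold change of -1.29 ± 0.108 (SE; edgeR, adjusted p = 1.44e-06). Plin2 was at 309.6, 253 and 297 CPM against 526, 543 and 604 CPM, a log2 fold change of -0.88 ± 0.0692 (SE; edgeR, adjusted p = 8.79e-07). Angptl4 was at 256, 187 and 251 CPM against 419, 388 and 456 CPM, a log2 fold change of -0.79 ± 0.0706 (SE; edgeR, adjusted p = 2.66e-06). For all 3 genes every value with Cd44 lay below every value without it. In this comparison 5.00% of the 11590 tested genes were called lower, and how many separated in this way was not counted.

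Smaller differences had the same direction in Lpl (-0.33, adjusted p = 4.93e-04, edgeR), whose levels were 2522, 1769 and 1888 CPM with Cd44 and 3002, 2565 and 2643 CPM without. Fabp4, at 720.1, 549.6 and 679 CPM against 831, 767 and 812 CPM, was lower by -0.22 (adjusted p = 0.0188, edgeR), a call lost without mouse 2 (0.054) or mouse 3 (0.0541). Plin4 was at 27.9, 19.5 and 23.1 CPM against 27.8, 31.5 and 41.8 CPM, lower by -0.47 (adjusted p = 0.0349, edgeR) but level in mouse 1, and its call was lost without mouse 2 (0.0517) or mouse 3 (0.214). Scd1 was higher with Cd44, at 57.2, 43.4 and 46.1 CPM against 49.7, 37.9 and 30.6 CPM, by 0.41 (adjusted p = 0.0119, edgeR; 0.142 without mouse 3). Cd36 was at 169, 58.2 and 87.8 CPM against 177, 58.6 and 91.4 CPM and had no call (log2 fold change 0.04, SE 0.0777), nor did Fabp5 and Acsl1. Fold changes were fitted with normalization factors that the printed CPM lack, so a small fold change can differ in sign from the levels. In all 1 member was called higher and 6 lower, where 10.7% and 5.00% of the 11590 tested genes were. DESeq2 called 4 of these 7, without Fabp4, Plin4 and Scd1. The uptake receptor Cd36 and the carrier Fabp4 differed little across the Cd44 division, and the lipolysis inhibitor G0s2 the most. The study had already named G0s2 from these same libraries as a marker of its CD44low population. It also reported higher G0s2 by quantitative PCR in sorted cells of that population. From its single-cell data the study further reported lower levels of PPARG target genes in the CD44high population. A score of adipogenic genes was lower there too, and its gene set includes Fabp4, Plin2, Lpl and Cd36. Those populations were clusters of cells, not the Cd44 division used here. The cells with Cd44 were slightly deeper, with medians of 8639, 13816.5 and 7396 UMIs against 7840, 12712 and 6968.

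**Figure D5:**
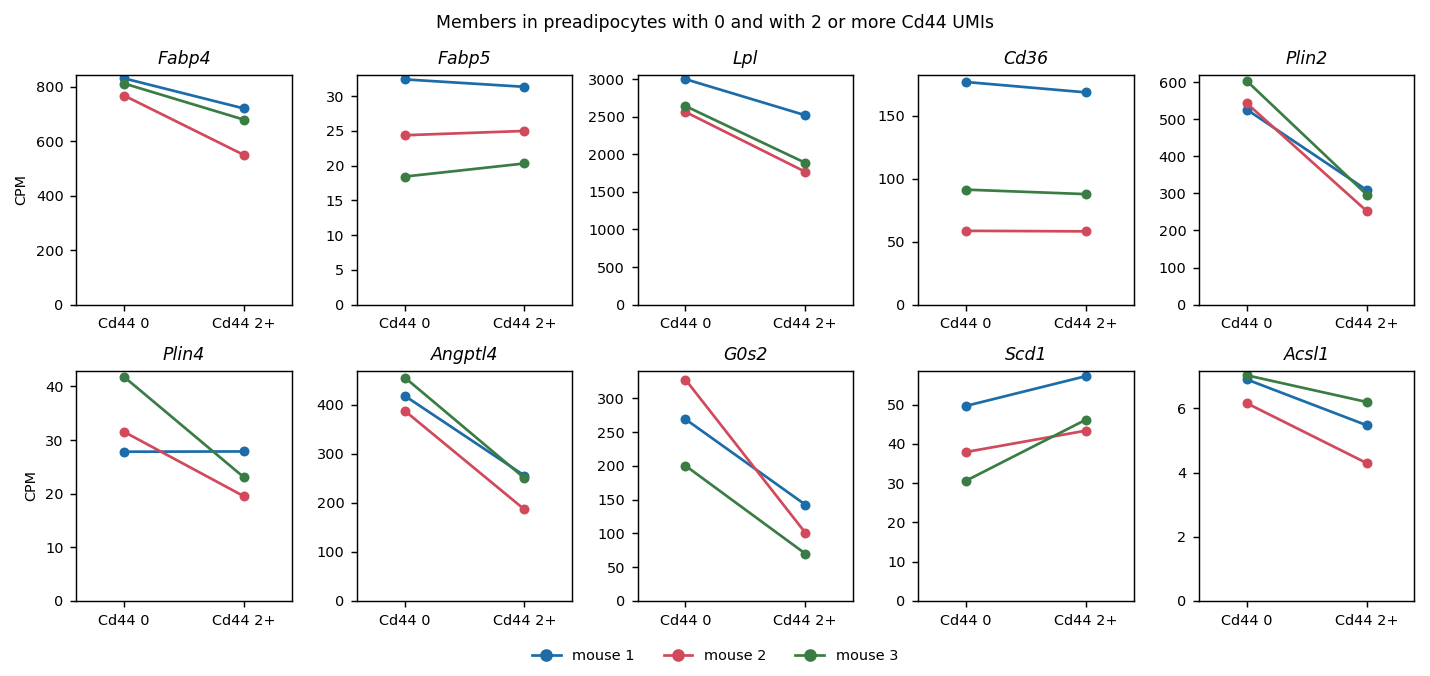
Level of each member in CPM (vertical axis, from 0, with a range of its own per gene) in preadipocytes with 0 and with 2 or more Cd44 UMIs, 1 line per mouse. The lines fall in all 3 mice for G0s2 (mouse 2 from 328 to 101 CPM), Plin2, Angptl4, Lpl and Fabp4, and climb for Scd1.

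Other lipid genes did not move as a block with the members. Of 16 further uptake genes, 15 were tested between preadipocytes and progenitors, 7 were higher and 3 lower, and their share of higher calls can be read against 21.4% of all genes called higher and of lower calls against 22.1%. Their median log2 fold change was 0.77 against 0.015 over all genes. Among called genes with at least 10 mean CPM in a class, the limit for every gene named here as the largest rise or fall, Cav1, the caveolin of surface invaginations, had the largest rise, from 42.5, 34.0 and 25.7 CPM in progenitors to 173, 179.7 and 169 CPM, and Vldlr, the very low density lipoprotein receptor, the largest fall (log2 fold changes 2.36 and -0.82). Cav1 was higher still in regulatory cells (304, 273 and 293 CPM, adjusted p = 0.00843 against preadipocytes, edgeR), where 7 of the 10 members were lower. The 16 tested genes of acyl-CoA synthesis, desaturation and lipogenesis were divided, 6 higher and 6 lower, with a median of -0.07. Elovl6, a fatty acid elongase, had the largest rise above that limit (0.66) and Acsl4, another acyl-CoA synthetase, the largest fall (-0.83). Below the limit, Acacb (2.85) and Mlxipl (1.85) were called with larger rises.

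For these lists too the shares over all genes are 21.4% called higher and 22.1% called lower. Triglyceride synthesis genes were divided, 4 higher and 5 lower of 12 tested, with a median of 0.06. Agpat2, an acyltransferase of the pathway, was higher by 1.14, while Dgat1, which adds the last acyl chain, was lower by -1.31, at 13.6, 16.0 and 14.1 CPM in preadipocytes against 30.8, 39.8 and 37.4 CPM. Of 9 tested droplet and lipolysis genes, 2 were higher and 2 lower (median -0.23). Fitm2, a droplet assembly gene, was higher by 1.60, and Mgll, the monoglyceride lipase, was at 15.9, 16.9 and 18.7 CPM against 130.1, 127 and 160.1 CPM, a fall of -3.02 on the log2 scale (adjusted p = 3.50e-08, edgeR). Fatty acid oxidation genes were 4 higher and 4 lower of 14 (median 0.10), with Cpt1c the largest fall (-0.40). Of 12 regulators 6 were higher and 1 lower (median 0.18). Among them Pparg was at 4.12, 3.17 and 4.04 CPM in progenitors and 47.5, 37.2 and 37.1 CPM in preadipocytes (log2 fold change 3.41, adjusted p = 1.24e-08, edgeR), and Cebpb was lower by -0.63.

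Across the Cd44 division the oxidation list had 0 higher and 5 lower of 14 tested genes, with a median of -0.18 against 0.002 over all genes. Over all genes 10.7% were called higher and 5.00% lower in this comparison. The regulators were 2 higher and 2 lower of 11, with Ppard the largest rise (0.64) and Cebpa, which acts with Pparg, the largest fall (-0.44). The uptake list had 2 higher, of which Cavin1 rose most (0.42), and 1 lower of 15. Acsl4 (0.59), Hilpda (0.68) and Lpin2 (0.57) had the largest rises of their lists, in which 1 of 16, 1 of 9 and 2 of 11 genes were higher and none lower. Between committed cells and preadipocytes, where 5.33% of all genes were called higher and 6.26% lower, the uptake list had 1 higher and 5 lower of 15, with Cav1 the largest fall (-1.31), and the triglyceride list 2 higher and none lower of 12, with Dgat2 the largest rise (2.43) from 3.78, 6.89 and 34.6 CPM in committed cells against 1.85, 1.72 and 2.33 CPM. Mouse 3 had most of that difference. Of the oxidation list 2 of 14 were higher, led by Cpt2 (0.70), of the droplet list Abhd5 was lower (-0.61), 2 regulators were lower, led by Cebpd (-0.88), and the lipogenesis list had no call.

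The genes whose pattern was most like that of Fabp4 were named by the correlation of log2 CPM over the 12 sums, among 3502 genes with a mean of at least 50 CPM in some class. They were Lamc3, a laminin chain (Pearson's r = 0.979), Hsd11b2, which inactivates glucocorticoids (0.978), H2-Q7, a class I histocompatibility gene (0.974), Rhob, a small GTPase (0.973), and Arc, an immediate early gene (0.958). The 12 sums share 3 libraries and the same gates, so these values are a description. The members and the gate genes were left out of the candidates, so the other members were not ranked against these 5. Lamc3 had mean levels of 1.53, 30.7, 4.36 and 90.5 CPM in progenitors, preadipocytes, regulatory and committed cells, against 38.7, 741, 66.4 and 1551 CPM for Fabp4. H2-Q7 belongs to a family of near-identical genes, and its count is uncertain for that reason.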

How the data were processed

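The data are 3 single-cell libraries (10x 3′ v2 chemistry), 1 per mouse. The authors deposited raw UMI counts per gene and barcode, made with Cell Ranger (2.1.1 on mm10 in the submitters' processing notes, 4.0.0 in the file headers). Reads that fit several genes are not counted in such files, and counts cover the 3′ ends of transcripts, so levels were not ranked between genes.

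Barcodes with more than 500 genes and under 5% mitochondrial UMIs were gated on raw UMIs. Cited1 cells were taken out of the other gates, and cells in both the progenitor and the regulatory gate (18, 17 and 37) were left out of both. UMIs were summed per class and mouse and tested in edgeR 4.0.16 (filterByExpr, TMM, quasi-likelihood test, mouse as a block, R 4.3.3), with p-values adjusted by the Benjamini-Hochberg method over all tested genes and called under 0.05. The comparisons between classes used 12 sums and the Cd44 comparison 6. Printed CPM were not scaled by the TMM factors, which lay between 1.03 and 1.15 in committed cells. The standard error is the fold change divided by the square root of F. Sums of a mouse come from 1 animal, and after class means were taken off they correlated with r between 0.308 and 0.912 over 3515 genes. On simulated counts the procedure found 87 of 100 genes changed 2-fold and 100 of 100 changed 4-fold, with 5 false calls among 11649 genes (preadipocyte against progenitor), and 76 and 100 of 100 with 9 false calls among 9987 genes (Cd44). Only 200 genes were changed in each simulation, every gene had the same dispersion, and genes of low count were left out. In the data far more genes were called, so these numbers are not its error rates. The mice are separate animals, and the labels name no batch.

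All 10 members, the 5 genes most like Fabp4, and per lipid list the called genes with the largest rise and fall (at least 10 CPM in a class) are named. The values of a gene that meets this rule are not reported here. The members and lists were chosen with earlier results of these data known. No gene shared 200 bases at 95% identity with the last 400 bases of a member among GENCODE transcripts of GRCm38. Alternatives covered normalization, test, filters, gates, depth, block and each mouse.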

Additional observations from a re-analysis of the deposited data

Results flagged for a closer look

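An endothelial gate required at least 3 UMIs of Pecam1, Cdh5 and Cldn5 together. Its cells carried members at high levels although CD31+ cells were sorted away. The gate held 40, 38 and 9 cells in mice 1, 2 and 3. No comparison used it as a class, but its cells were not taken out of a compared class whose gate they also met. How many of them met such a gate was not counted. Their mean Fabp4 level over 3 mice was 13644 CPM (16367, 21254 and 3310 CPM), against 741 CPM in preadipocytes, and their mean Cd36 level was 2018 CPM (2953, 2330 and 772 CPM), against 105 CPM. Both genes are also known from the endothelium of capillaries. The gated cells had an endothelial marker sum of 5823, 8537 and 1655 CPM, but other markers as well. Their adipocyte marker sum was 632, 447 and 177 CPM, against at most 17.8 CPM in the 4 classes. Their ASC marker sum was 4261, 3590 and 1236 CPM and their PreA marker sum 3829, 3473 and 3862 CPM. The make-up of these cells was not tested. Fabp5 was at 1457, 872 and 177 CPM in the same cells. The alternative without cells of at least 2 endothelial or leukocyte UMIs left these cells out. Its Fabp4 difference between preadipocytes and progenitors is given above. The part of free RNA from these cells in the low Fabp4 level of progenitors was not tested.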

How the results depend on the processing

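The direction of every member that had a call held under all alternatives run, and 981 of 1069 member values kept both direction and side of the threshold. Leaving out cells in several gates, or committed cells of the progenitor gate, changed the cells of the committed class only. Values between the other classes could hardly move in these alternatives, and they are part of that count. Calls between preadipocytes and progenitors numbered 9 under all alternatives but thinning to 3000 UMIs (10, with Acsl1 at 0.78), and the share of cells was higher in preadipocytes for 8 members at 2000 and 5000 UMIs and 9 unthinned. The share of all genes called was taken in the main fits only, so counts of members under the alternatives cannot be set against it. Counts of members called moved by over 1.5 times as follows. Committed cells against preadipocytes gave 3 calls, 1 without the mouse as a block and between 1 and 4 when a mouse was left out. Committed against regulatory cells gave between 5 and 9 when a mouse was left out. The Cd44 comparison gave 7 calls, 4 with DESeq2, between 4 and 7 when a mouse was left out, and 0 in edgeR without the block (3 of 10 at an unadjusted p under 0.05). The blocked analysis is the main one because sums of a mouse share an animal.

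Log2 fold changes that turned sign were all without a call in both fits. Against progenitors in regulatory cells, Plin2 was between -0.34 and 0.38 when a mouse was left out, -0.05 with stricter gates and -0.51 thinned, Plin4 -1.11 thinned, and Acsl1 between -0.45 and 0.90 when a mouse was left out. In committed cells Scd1 was between -0.19 and 0.42 and Acsl1 between -0.08 and 0.54 when a mouse was left out, and Acsl1 was -0.02 with cells in several gates left out, -0.44 with stricter gates, -0.30 thinned and -0.06 without the cells of the progenitor gate. Against preadipocytes, Acsl1 in regulatory cells was -0.02 by library size, -0.01 unfiltered, between -0.79 and 0.58 when a mouse was left out, -0.06 under 10% mitochondrial UMIs and -0.02 with stricter gates. In committed cells it was 0.12 by library size, 0.01 in DESeq2, 0.00 without the block, and between -0.40 and 0.19 when a mouse was left out, Fabp5 between -0.15 and 0.59, and Cd36 between -0.03 and 0.27. Between committed and regulatory cells Acsl1 was 0.13 by library size and between -0.98 and 0.98 when a mouse was left out. Across Cd44, Fabp5 was -0.58 thinned and -0.18 without the deepest 5% of cells, and Cd36 -0.05 by library size, between -0.01 and 0.06 when a mouse was left out, -0.29 thinned and -0.05 without the deepest cells. The cause was not tested. The alternatives without Tek and without committed cells of the progenitor gate were chosen after seeing the data. The first planned version removed between 31.8% and 50.2% of progenitors. Depth limits Acsl1, Fabp5 and Plin4 most, and the committed gate rests on few cells.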
